A study of Bos taurus with 6 samples.

Results

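The PIM and SGK kinases were examined in bovine granulosa cells through the probes of PIM1, PIM2, PIM3, SGK1 and SGK3. These are serine/threonine kinases that share substrates with AKT, and they were chosen by gene name from the platform annotation. Each gene had 1 probe (a transcript cluster of the array), so 5 of 24415 probes and 5 of 18010 named genes are described. The genes were put together with earlier results of the same arrays known, among them the high PIM2 signal after LY294002. Their differences between the treatments are therefore given as a description, with their errors. Whether a gene met the thresholds used for all probes is stated in the same way, as a property of its values and not as a test of these genes. The LY294002 group consisted of primary granulosa cells that received 50 μM LY294002, an inhibitor of PI3K, and the DMSO group received the vehicle alone, with 3 arrays in each group. All cells came from follicles of 2 to 6 mm and were cryopreserved, thawed and cultured with FSH and IGF1, so both groups carry the stimulus that activates AKT. The inhibitor was added on day 2 in medium without FSH and IGF1, most of the medium was exchanged after 2 h for medium with both hormones. The methods give a time shortly afterwards and day 4 for analyses and do not say which holds for the arrays. Cells came from abattoir ovaries collected on different days, and the day or animals behind a given array are not given in the sources used here. The p-values below therefore measure the spread between these samples only.

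PIM kinases have no known regulatory domain and are active once they are made. Their amount is set mainly by transcription and by the stability of mRNA and protein, and cytokine receptors that signal through JAK and STAT are the best known inducers. They phosphorylate proteins that are also targets of AKT, such as the pro-apoptotic BAD. SGK kinases are close relatives of AKT and depend on mTORC2 and PDK1, as AKT does. SGK1 transcription responds to corticoids and, in rat granulosa cells, to FSH, while SGK3 carries a PX domain that binds a phosphoinositide on endosomes. LY294002 is known to bind further kinases besides PI3K, PIM1 and mTOR among them. The arrays measured RNA and hold no information on kinase activity.

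The values are log2 signals, and a difference of 1 stands for a doubling. A probe was called where limma gave an adjusted p under 0.05 over all probes together with a change of 1.4-fold or more, the thresholds of the study's methods. Array medians ran from 4.98 to 5.01. The median log2 fold change of all probes was 0.017. Of 24415 probes, 5.96% were called, 2.58% as higher and 3.38% as lower with LY294002. The granulosa markers FOXL2, AMH, AMHR2 and CYP19A1 had fallen among 10 markers measured, with the largest fall in CYP19A1 (-1.97 on the log2 scale). FSHR and GATA4 lay on the higher side (0.25 and 0.20) and did not pass. INHA and INHBA (-0.05 each) and FST (0.01) were nearly level, and HSD17B1 (-0.29) stayed under the fold threshold. The median of the 10 was -0.17. The mean signal of the 10 was 7.74 to 7.82 on the LY294002 arrays, against 8.13 to 8.23 on the DMSO arrays.

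Of the 5 kinase genes, PIM1 and PIM2 met the thresholds as higher and SGK3 as lower, and PIM3 and SGK1 did not meet them. This is 3 of 5 probes against the 5.96% of all probes, and nothing is read from the share because the genes were chosen with this contrast known. With no fold threshold the count was 4 of 5 (13.3% of all probes), and with one of 2-fold it was 1 of 5 (1.1% of all probes). The values of 4 of the 5 genes did not overlap between the groups, which was so for 32.7% of all probes. The 3 PIM genes all lay on the higher side with LY294002, and SGK1 and SGK3 did not. SGK2 was not among the 5 genes and is given below, at a log2 fold change of 0.29 with overlapping groups.

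**Figure D1:**
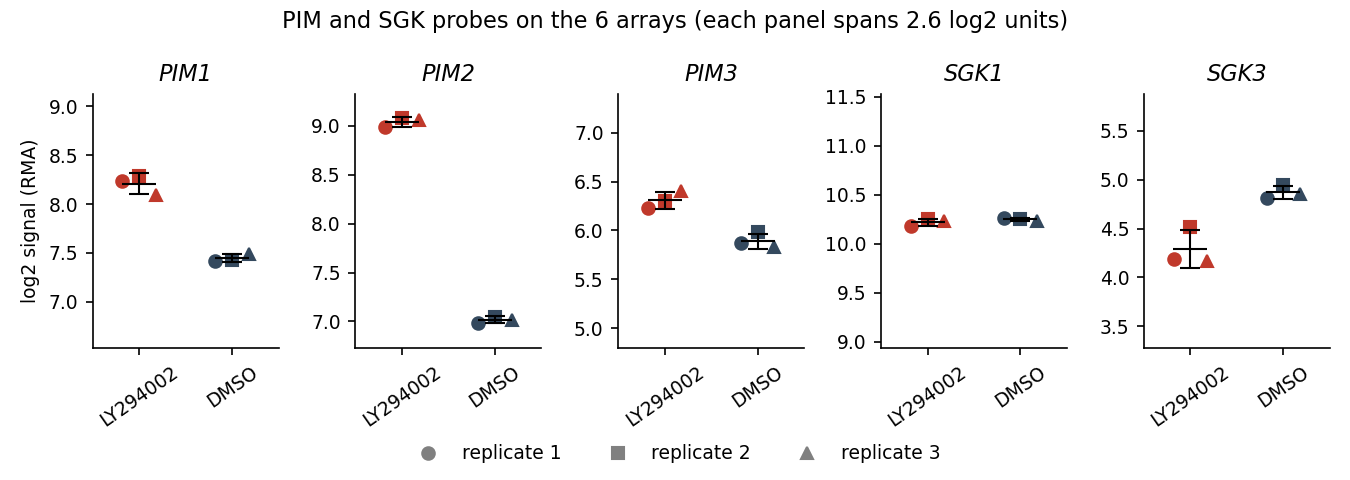
RMA log2 signal of each kinase gene (vertical axis, every panel spanning the same range) on the 3 LY294002 arrays (left, red) and the 3 DMSO arrays (right, dark), with the mean and SD in black and the replicate number as the symbol. PIM2 is separated by 1.94, PIM1 by 0.60 and PIM3 by 0.25 log2 units, SGK1 overlaps, and SGK3 is lower with LY294002 by at least 0.29.

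PIM2 (probe 12907694) encodes a kinase known mainly from lymphoid and myeloid cells, where it promotes survival and protein synthesis. Its log2 signal was 8.99, 9.08 and 9.06 in LY294002 replicates 1, 2 and 3, against 6.98, 7.05 and 7.02 in the DMSO replicates. The lowest LY294002 array stood 1.94 above the highest DMSO array, and the 3 arrays within a group lay within 0.09 of each other in LY294002 and within 0.07 in DMSO. The mean log2 signal was 9.04 ± 0.0473 in LY294002 and 7.02 ± 0.0351 in DMSO (SD, n = 3 each). PIM2 thus rose 4.07-fold, a log2 fold change of 2.03 (SE 0.061, 95% interval 1.88 to 2.17). The spread within each group was less than the median SD of a probe on these arrays, which was 0.104 in LY294002 and 0.11 in DMSO. Among the rises of all 24415 probes that of PIM2 ranked 6th, and 0.111% of probes had a larger change in either direction.

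PIM1 (probe 12804472), the founding member of the family, encodes a kinase first known as a site of retroviral integration in mouse lymphomas. The LY294002 replicates had log2 signals of 8.24, 8.29 and 8.09, against 7.42, 7.43 and 7.49 in the DMSO replicates. The groups were 0.60 apart, and replicate 3 was the lowest of the LY294002 arrays. PIM1 averaged 8.21 ± 0.104 in LY294002 and 7.45 ± 0.0379 in DMSO (SD, n = 3 each), a rise of 1.69-fold with a log2 fold change of 0.76 (SE 0.0742, 95% interval 0.58 to 0.94). Fewer than 1 in 100 probes, 0.995%, had a larger rise. Without any 1 of the 6 arrays its log2 fold change lay between 0.72 and 0.82, and it met the thresholds each time.

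PIM3 (probe 12856550) encodes the third PIM kinase, which like its relatives phosphorylates BAD. Its log2 signals were 6.23, 6.30 and 6.40 in the LY294002 replicates and 5.87, 5.98 and 5.83 in the DMSO replicates. All LY294002 arrays lay above all DMSO arrays, by 0.25 at the closest. The means were 6.31 ± 0.0854 and 5.89 ± 0.0777 (SD, n = 3) in LY294002 and in DMSO. The log2 fold change of 0.42 (SE 0.0757, 95% interval 0.24 to 0.60) equals 1.33-fold, under the fold threshold of 1.4, so PIM3 did not meet the thresholds. Its interval includes values on both sides of that threshold, which is 0.485 on the log2 scale.

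SGK1 (probe 12900295) encodes the serum- and glucocorticoid-regulated kinase, which controls ion transport and survival. It had bright and nearly level signals of 10.18, 10.25 and 10.23 in the LY294002 replicates, against 10.26, 10.25 and 10.23 in the DMSO replicates. The groups overlapped, and the lowest and highest of the 6 values came from replicate 1 of LY294002 and replicate 1 of DMSO. SGK1 averaged 10.22 ± 0.0361 in LY294002 and 10.25 ± 0.0153 in DMSO (SD, n = 3 each). The log2 fold change was -0.03 (SE 0.0577), and its 95% interval of -0.16 to 0.11 lies wholly within the fold threshold on either side.

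SGK3 (probe 12721928) encodes the endosomal member of the family, which depends on the lipid products of PI3K and of VPS34. Its log2 signals were 4.19, 4.52 and 4.17 in the LY294002 replicates and 4.81, 4.94 and 4.85 in the DMSO replicates. Every LY294002 array lay below every DMSO array, and LY294002 replicate 2, the highest of its group, stood 0.29 below the lowest DMSO array. SGK3 averaged 4.29 ± 0.197 in LY294002 and 4.87 ± 0.0666 in DMSO (SD, n = 3 each), and it fell 1.49-fold with a log2 fold change of -0.57 (SE 0.108, 95% interval -0.83 to -0.31). The SD of SGK3 in LY294002 was larger than that of the 4 other kinase genes, of which PIM1 had the next largest at 0.104. SGK3 no longer met the thresholds without LY294002 replicate 1 (log2 fold change -0.52), LY294002 replicate 3 (-0.51) or DMSO replicate 1 (-0.60), 2 (-0.54) or 3 (-0.58), each time because the adjusted p rose above 0.05. Without LY294002 replicate 2 it met them, with -0.69.

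**Figure D2:**
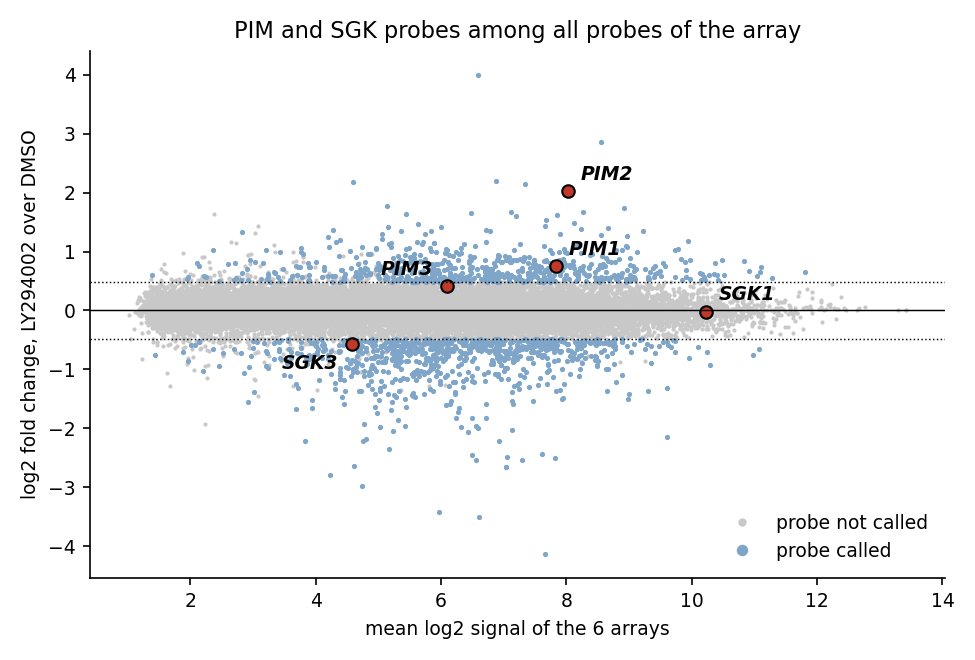
Log2 fold change of LY294002 over DMSO (vertical axis) against the mean log2 signal of the 6 arrays (horizontal axis) for all 24415 probes, with the kinase genes as red circles, called probes in blue and other probes in grey; dotted lines mark 1.4-fold. PIM2 stands at the upper edge of the cloud, PIM1 above the threshold, PIM3 just under it, SGK1 on the zero line and SGK3 below the lower threshold.

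The 5 genes therefore ran from PIM2 through PIM1, PIM3 and SGK1 to SGK3 in their log2 fold changes. To set neighbours in this order against each other, the 2 signals were subtracted within each array and the difference compared between the treatments, for 10 pairs and without p-values. The order came from the same values, so every difference is positive by construction. The intervals are not adjusted for the 10 pairs and do not test the order. Unlike those of single genes, the errors and intervals of the pairs rest on unmoderated variances. PIM2 exceeded PIM1 by 1.27 on the log2 scale (SE 0.0726, 95% interval 1.06 to 1.47). For PIM1 over PIM3 the difference was 0.34 (SE 0.12), and its interval of 0.01 to 0.68 nearly reached 0. PIM3 exceeded SGK1 by 0.44 (SE 0.0578, 95% interval 0.28 to 0.60), and SGK1 exceeded SGK3 by 0.55 (SE 0.108, 95% interval 0.25 to 0.85). These are differences of changes between treatments. The signals themselves do not rank the genes by expression, since probes differ in how well they bind, and the files do not show whether the probes of the related PIM genes also bind each other's transcripts. On the scale of the array, the mean signal of SGK3 stood at the 44.5th percentile of all probes and that of PIM3 at the 63.5th, compared with 84.5 for PIM1, 86.7 for PIM2 and 98.4 for SGK1.

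**Figure D3:**
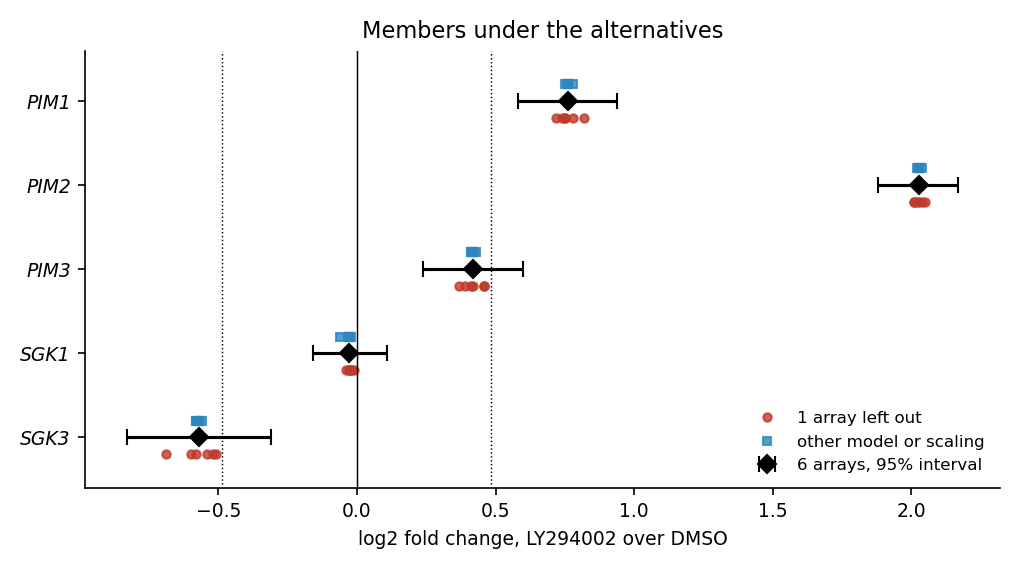
Log2 fold change of LY294002 over DMSO (horizontal axis) for each kinase gene, with black diamonds for all 6 arrays and their 95% interval, red circles for the fits with 1 array left out and blue squares for other models or scalings; dotted lines mark 1.4-fold. The values of PIM2 stay between 2.01 and 2.05 and those of SGK1 between -0.06 and -0.01, whereas SGK3 moves between -0.69 and -0.51.

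For each gene the probes whose 6 values ran most alike were also sought, by Pearson's r over the 6 arrays and 2 groups. PIM2 was followed most closely by TMEM54, IGSF11 and PDGFRA, with r from 0.9996 to 0.9998. The nearest to PIM1 were DNAL1 (0.9994), CTNND1 (0.999) and UBTF (0.9982), and those nearest to PIM3 were DENND6A (0.9983), ETV5 (0.9958) and STMP1 (0.9954). ETV5 encodes an ETS transcription factor and was higher with LY294002 by 0.93 on the log2 scale. SGK3 ran most like TRAK2 (0.9979), PRUNE2 (0.9969) and MTDH (0.9967), whose log2 fold changes were -0.17, -0.86 and -0.18. For SGK1 the highest r was 0.9888, with SFTPC, whose dim signal differed by -0.09 only. Where the groups lie apart, such an r reflects mainly the step between the treatments, and with 6 arrays it is a description only.

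PIM2 and PIM1 are abundant in blood cells, and stromal PDGFRA ran with PIM2, so markers of other cells were examined. Of 10 leukocyte markers 9 were measured, and their mean signal was 4.30 to 4.43 on the LY294002 arrays and 4.35 to 4.53 on the DMSO arrays. PTPRC, the pan-leukocyte gene CD45, had signals of 3.60, 3.70 and 3.19 in LY294002 against 3.77, 3.47 and 3.39 in DMSO, in the lower part of the array. None of the 9 was called by limma, and before adjustment 1 had a p under 0.05, LCP1 at -0.35, which passed the adjusted p (0.0162) and missed only the fold threshold. The median of the 9 was -0.05. Among 6 stromal markers COL1A2 and PDGFRA rose, with log2 fold changes of 0.60 (adjusted p = 0.0064 by limma) and 0.69 (adjusted p = 0.00117 by limma), while the other 4 lay at or below -0.02, down to -0.29 for DCN (adjusted p = 0.0454 by limma), under the fold threshold. The median of the 6 was -0.03, and their mean signal was 9.90 to 9.98 in LY294002 and 9.77 to 9.84 in DMSO. Of 7 endothelial markers CLDN5 fell, a call not made with unmoderated variances, and the highest was TIE1 at 0.25, which did not pass. Of 5 theca markers INSL3 fell, and PTCH1, at 0.37 (adjusted p = 0.0278 by limma), stayed under the fold threshold. The part of leukocytes or stromal cells in the PIM signals was not tested. In a culture of mixed cells, fewer cells of a type and less RNA per cell cannot be told apart.

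Around these kinases, 8 lists held 117 further genes, of which 112 were measured. They were compared with 1 probe per gene. In all, 10 of the 112 rose and 8 fell (16.1%), against 6.98% of all 18010 genes, of which 2.99% rose and 3.99% fell, while the median log2 fold change was 0.02 in the lists and 0.01 over all genes. An unadjusted p under 0.05, used below for some lists, was found for 31.1% of all genes, 15% higher and 16.2% lower. The lists were drawn up with earlier results known, and nothing particular to them is read from these counts.

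The closest relatives of SGK come next. Of 8 measured AGC kinase genes (AKT1, AKT2, SGK2, RPS6KB1, RPS6KB2, RPS6KA1, RPS6KA3 and PDPK1) 0 were called by limma, 0 had an unadjusted p under 0.05, and 0 were called with unmoderated variances or an intensity trend. With 6.98% of all genes called, a count of 0 among 8 is near the background. The lowest adjusted p was that of AKT2, which differed by -0.15 on the log2 scale (SE 0.0621, adjusted p = 0.188). SGK2, the third SGK gene, gave some of the dimmest signals here, with 2.96, 3.01 and 3.31 in LY294002 against 2.67, 2.63 and 3.11 in DMSO, and its groups overlapped (log2 fold change 0.29, SE 0.157, 95% interval -0.09 to 0.67, adjusted p = 0.302). The median over this list was -0.02. Of the SGK genes only SGK3 met the thresholds, but its difference from SGK2 was not tested.

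Among 17 genes of PI3K and mTORC2, which act upstream of SGK and AKT, 1 rose and 1 fell. PIK3R3, a regulatory subunit of PI3K, fell to 5.98, 5.82 and 5.88 in LY294002, against 7.26, 7.09 and 6.94 in DMSO (log2 fold change -1.20, SE 0.0977, adjusted p = 0.00117). DEPTOR, an inhibitory partner of mTOR, rose by 0.71 (SE 0.0942, adjusted p = 0.0055). PIK3R2, a second such subunit, differed by -0.37 (adjusted p = 0.0119), under the fold threshold.

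Of 21 genes for proteins that AKT, PIM or SGK phosphorylate, 1 rose and 3 fell, with a median of -0.10. FOXO1, a forkhead factor that AKT and SGK keep out of the nucleus, had log2 signals of 9.79, 9.73 and 9.71 in LY294002 and 8.96, 9.05 and 9.06 in DMSO, and rose by 0.72 (SE 0.0631, adjusted p = 0.00142). NDRG2, an SGK substrate, fell by 0.76 on the log2 scale (SE 0.0665, adjusted p = 0.00144). CDKN1A, the cell cycle inhibitor p21 that PIM and AKT phosphorylate, fell by 0.77 (SE 0.097, adjusted p = 0.00456). CDC25A, a cell cycle phosphatase activated by PIM1, fell by 0.50 on the log2 scale (adjusted p = 0.0256), a call that did not hold with unmoderated variances (adjusted p = 0.0749), under 1.4-fold after quantile normalization (-0.48), and without LY294002 replicate 2 or 3 or DMSO replicate 1, 2 or 3 (adjusted p from 0.0548 to 0.0755). All these values refer to mRNA, and phosphorylation was not measured on the arrays.

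FOXO target genes showed both directions. Of 19 measured, 5 rose and 2 fell, with a median of 0.09. BCL6, a transcriptional repressor, had log2 signals of 9.48, 9.43 and 9.48 in LY294002 against 8.52, 8.58 and 8.61 in DMSO (log2 fold change 0.89, SE 0.0601, adjusted p = 0.000784). TRIB1 (0.86, adjusted p = 0.00103), KLF6 (0.81, adjusted p = 0.000987) and the mitochondrial superoxide dismutase gene SOD2 (0.65, adjusted p = 0.00242) rose as well.

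The cytokine, JAK and STAT list holds the best known inducers of PIM, and also the SOCS genes and CISH. Of 17 measured genes 1 rose and 0 fell by limma, and the median was 0.09. Before adjustment 5 genes had a p under 0.05, near the 31.1% of all genes. The 1 lower gene among them was STAT5A, at -0.36 (adjusted p = 0.0555 by limma). STAT3 (0.03), SOCS1 (0.21), SOCS2 (0.01) and SOCS3 (0.09) did not pass. With unmoderated variances, and likewise with an intensity trend, 1 gene was called. GHR, the growth hormone receptor gene, rose by 0.87 (SE 0.0591, adjusted p = 0.000815). JAK2, the kinase of this receptor, differed by 0.47 on the log2 scale (SE 0.0661, adjusted p = 0.00681), just under 1.4-fold. It was called without LY294002 replicate 3 or DMSO replicate 1, with 0.50 in both cases. LIFR (0.44, adjusted p = 0.00873) and IL6ST (0.32, adjusted p = 0.0225), receptor chains for LIF and related cytokines, stayed under the fold threshold too. Of 11 NF-kB genes, another route to PIM, 0 were called by limma or either alternative model. Before adjustment 4 of the 11, all lower, had a p under 0.05. Of all genes 31.1% had such a p, 16.2% as lower. REL had the lowest adjusted p of the 11 NF-kB genes (0.0535), at -0.48 on the log2 scale.

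SGK1 is a known target of corticoids and FSH, so genes of these 2 responses were set beside its level signal. The corticoid list holds the receptor genes NR3C1 and NR3C2 and the enzyme genes HSD11B1 and HSD11B2 besides genes that corticoids induce. Of 12 corticoid genes 1 rose and 1 fell, with a median of 0.14. HSD11B1, which activates glucocorticoids, fell by 0.86 (SE 0.109, adjusted p = 0.00463), and ZBTB16, a glucocorticoid-induced repressor, rose by 0.51 (SE 0.0691, adjusted p = 0.00614), a change that dropped under 1.4-fold without DMSO replicate 1 (0.46). NR3C1, the gene of the glucocorticoid receptor, differed by 0.43 (adjusted p = 0.0198) and HSD11B2, which inactivates cortisol, by 0.44 (adjusted p = 0.0399), both under the fold threshold. Of 9 FSH-induced genes 1 rose and 1 fell, with a median of -0.05. CYP19A1, the aromatase gene, had log2 signals of 5.50, 5.36 and 5.17 in LY294002 against 7.28, 7.31 and 7.34 in DMSO and fell by 1.97 (SE 0.0937, adjusted p = 0.000243). LHCGR, the LH receptor gene, lay at -0.53 (adjusted p = 0.0552). It was called with an intensity trend, without the dimmest probes, on probes with 1 symbol, and without LY294002 replicate 2 (adjusted p from 0.0325 to 0.0421). In 12 of 16 alternatives it was not called. Its signal was dim, with means of 2.98 in LY294002 and 3.52 in DMSO. It stood at the 26.1st percentile of all probes, just above the dimmest 25%. CYP11A1, which starts steroid synthesis, rose by 0.59 (SE 0.0723, adjusted p = 0.00416). SGK1, with its difference of -0.03, moved with neither CYP19A1 nor CYP11A1. Of the FSH-induced genes 7 did not pass either. INHA and INHBA (-0.05 each) and CCND2 (-0.09) were nearly level. FSHR (0.25), VEGFA (-0.47), LHCGR and PRKAR2B (0.31, adjusted p = 0.025 by limma) lay further from 0. Of the corticoid genes 10 did not pass, among them TSC22D3 (-0.15), PER1 (0.06), KLF9 (0.07) and DUSP1 (0.10). FKBP5, at 0.30, passed the adjusted p (0.0428 by limma) and missed only the fold threshold, as did NR3C1 and HSD11B2.

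**Figure D4:**
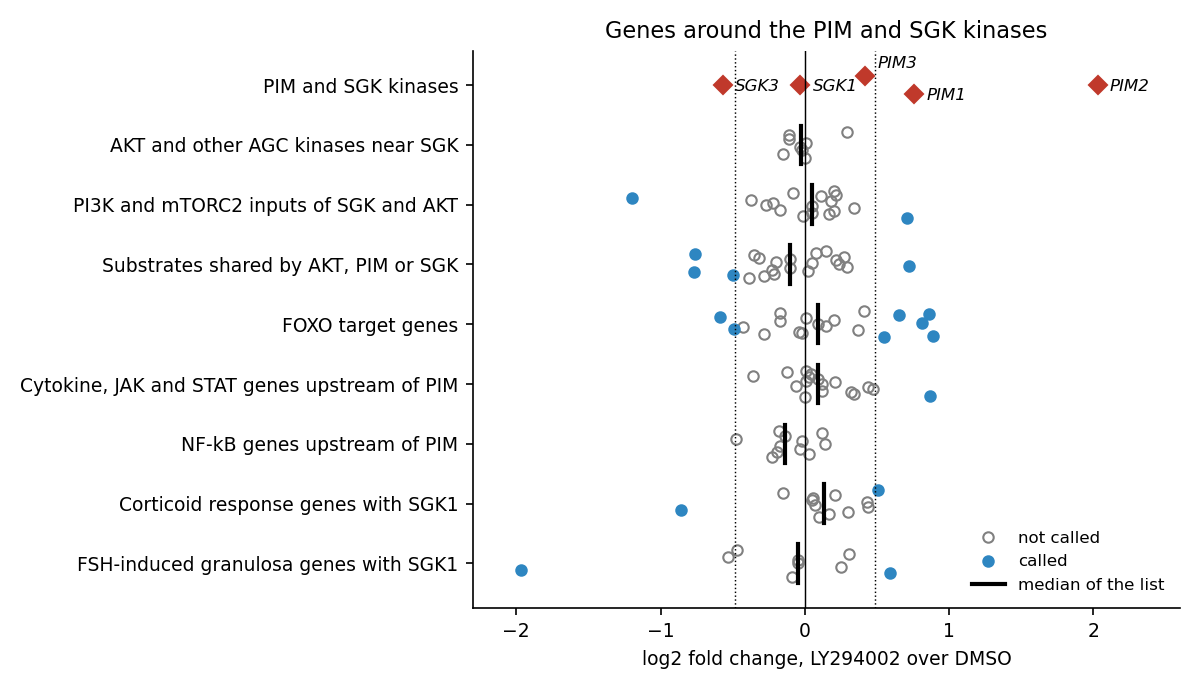
Log2 fold change of LY294002 over DMSO (horizontal axis) for the 5 kinase genes (red diamonds, top) and for the genes of 8 lists around them (circles, filled where called, with the list's median as a black bar); dotted lines mark 1.4-fold. PIM2, at 2.03, lies above every gene of the 8 lists, of which the highest is BCL6 at 0.89, and the lowest is CYP19A1 at -1.97.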

How the data were processed

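RNA from 3 LY294002 and 3 DMSO cultures was hybridized to Bovine Gene 1.0 ST arrays. The deposited values are log2 signals that the authors obtained with RMA, which corrects the background, normalizes between arrays and summarizes each transcript cluster. RMA makes the arrays alike in distribution, so a shift common to all genes would not be seen. The RMA version and the genome build are not given in the sources used here, so no coordinates are printed. RefSeq (assembly ARS-UCD2.0) held the gene IDs of all 5 genes. Of 24415 probes, 18457 had 1 symbol and 688 several, which named no gene.

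A linear model with the group as its only term was fitted to all probes (lmFit, then eBayes; limma 3.58.1, R 4.3.3), with Benjamini-Hochberg adjustment. Where a listed gene had several probes, the brightest was used. The test was tested on simulated arrays. Named are all 5 genes, up to 4 genes per list with the lowest adjusted p, up to 3 probes most like each gene and the markers behind the marker counts. Some of those 4, such as PIK3CB and IKBKB, are left out. Further list genes, such as STAT3, SOCS1 and PER1, were named outside this rule with their values known. The genes and lists were chosen with earlier results of these data known. Alternatives were other variance models, scalings, filters and thresholds, the replicate number as a block and leaving out each array. Precision is limited by the number of arrays.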

Additional observations from a re-analysis of the deposited data

How the results depend on the processing

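The direction of all 5 kinase genes was the same in all 16 alternatives that apply to them. PIM2 stayed called in all 16. PIM1 stayed called in all but the 2-fold threshold, where its log2 fold change of 0.76 was too small. SGK3 (-0.57) lost its call in 7 of 16, at 2-fold, without moderation of the variances and in 5 of the 6 fits that left out 1 array, over which it ranged from -0.69 to -0.51. PIM3 (0.42) passed only where no fold threshold was set. SGK1 passed in none. A 2-fold threshold left 268 probes, 1 kinase gene and 2 list genes, and no fold threshold gave 3249 probes and 34 list genes, compared with 1454 probes and 18 list genes. No source ties samples of the same number together, so the numbers were left out of the model. Deviations from the group means correlated by -0.044, -0.021 and -0.027 between samples of the same number, and no sample correlated best with its own number. With the number as a block, 1252 probes, 3 kinase genes and 16 list genes were called. Among the list genes, the alternatives were followed for those called and for the 4 per list with the lowest adjusted p. None of these changed direction. Other list genes named, such as PER1 (0.06) and SOCS2 (0.01), were not followed, so the stability of their direction was not tested. With 3 arrays a group, a change near 1.4-fold such as that of PIM3 or SGK3 lies near the limit of what the thresholds separate.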

Other observations

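The FOXO target genes that fell and the remaining gene of that list that rose, named here after their values were seen, were SESN3, FBXO32 and BCL2L11. SESN3, a sestrin that restrains mTORC1, fell by 0.59 on the log2 scale (SE 0.0882, adjusted p = 0.00844 by limma). FBXO32, the ubiquitin ligase atrogin-1, fell by 0.49 (SE 0.0925, adjusted p = 0.0196 by limma). BCL2L11, which encodes the pro-apoptotic protein BIM, had signals of 6.44, 6.66 and 6.27 in LY294002 against 6.10, 5.81 and 5.81 in DMSO (log2 fold change 0.55, adjusted p = 0.0373 by limma). FBXO32 kept its call in 7 of 16 alternatives and BCL2L11 in 9 of 16, and both lost it with unmoderated variances (adjusted p = 0.0569 and 0.11 by limma) and with the replicate block. FBXO32 also lost it without LY294002 replicate 1 (-0.45) or 3 (-0.47) or DMSO replicate 1 (-0.43) or 2 (-0.47), and BCL2L11 without LY294002 replicate 1 (0.56) or 2 (0.45) or DMSO replicate 2 or 3 (0.50 each). The genes of this list that passed the thresholds thus lay on both sides of 0.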
